A study of Mus musculus with 2 samples.

Results

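The genes described here carry out the interferon response and the display of peptides on MHC class I molecules, 31 genes in all out of 55536 annotated genes. They were taken by symbol from a fixed list, with the symbols read from the transcript names and joined to the gene tables by gene identifier. All 31 were found, and all but Mx2, a polymorphic pseudogene in the annotation, are annotated as protein coding. They were measured in total RNA of mouse heart, and the hearts came from male mice of a cross labelled 5xFAD X Cast, aged 8 to 10 months. 5xFAD is a transgenic line made to model amyloid deposition, with transgenes driven by a Thy1 promoter, which acts mainly in neurons. CAST mice descend from wild-caught animals, and the labels do not say whether these animals carried the transgenes. The 2 libraries form 1 group and are named here by their replicate numbers, library 2 and library 1, each made from 300 ng of RNA. They have separate tissue samples but share a donor identifier, and the labels do not say whether they came from different animals. With no second group there was no contrast, no test and no p-value, and any ratio of library 2 over library 1 describes the spread between these libraries. Levels are in TPM, an abundance scaled to the library total and divided by transcript length, so that genes can be compared with each other. Each library was quantified by 2 methods, called the first and the second quantification, and values are from the first unless the second is named.

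Interferons of types I and III are secreted when cells sense foreign or misplaced nucleic acid. Type I interferons act through the receptor chains Ifnar1 and Ifnar2 and the kinases Jak1 and Tyk2, which lead to a complex with Stat2 and Irf9 that binds interferon-stimulated response elements (ISRE), while interferon gamma acts through Ifngr1 and Ifngr2 on genes with gamma-activated sites (GAS). The induced genes include antiviral effectors and the machinery that loads peptides on class I molecules, which nucleated cells carry at rest and in larger amounts under interferon. In the heart this machinery is known for its part in viral myocarditis and in the recognition of infected cells by cytotoxic T cells.

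Some of the genes share short motifs near their start sites. The RefSeq promoter table (build GRCm38.p6, the C57BL/6J reference and not the CAST allele) held windows from 250 bases before to 50 bases after the start site for 25 of the 31 genes, and none was used for Usp18, Mx1, Mx2, Ifi27, Ifi27l2a and Tap2. The ISRE core was searched as GAAA, any 2 bases and GAAA, and the GAS core as TTCNNNGAA, on both strands. The genes shown are those with an ISRE core before the start site, and Irf1 for its GAS core, because they span the whole range of levels found below, from Cxcl10, which had a single read in the 2 libraries together, to B2m, the most abundant. All letters run 5′ to 3′ on the strand of the gene, with the core in capitals. A core on the other strand is shown in capitals as its reverse complement. Whole stretches of 250 bases are given for Isg15, which had 3 overlapping ISRE cores, for B2m, which had a single core, and for Irf1, which had a GAS core. They lie at chr4:156200819-156201068 (minus strand), chr2:122147437-122147686 (plus strand) and chr11:53769764-53770013 (plus strand).
Isg15: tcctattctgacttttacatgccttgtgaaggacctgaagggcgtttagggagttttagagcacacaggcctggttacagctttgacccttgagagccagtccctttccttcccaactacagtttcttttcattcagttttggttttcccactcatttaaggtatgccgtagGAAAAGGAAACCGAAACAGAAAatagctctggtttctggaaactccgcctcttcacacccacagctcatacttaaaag
B2m: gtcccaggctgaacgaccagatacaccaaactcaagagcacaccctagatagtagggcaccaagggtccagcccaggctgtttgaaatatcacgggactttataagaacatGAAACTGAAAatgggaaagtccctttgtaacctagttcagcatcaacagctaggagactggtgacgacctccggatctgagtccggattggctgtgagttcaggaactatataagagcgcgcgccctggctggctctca
Irf1: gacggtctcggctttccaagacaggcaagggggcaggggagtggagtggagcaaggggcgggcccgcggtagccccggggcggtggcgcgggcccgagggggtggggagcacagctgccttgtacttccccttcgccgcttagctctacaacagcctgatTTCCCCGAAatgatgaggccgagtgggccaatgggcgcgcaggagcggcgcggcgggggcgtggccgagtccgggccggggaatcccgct

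Shorter stretches around the ISRE cores are given for 8 more genes, to show the same core at low and middle levels of RNA. They lie at chr5:92349081-92349114 (minus strand) for Cxcl10, chr5:120907526-120907557 (minus) for Oas1a, chr8:71537575-71537614 (minus) for Bst2, chr12:26456551-26456584 (minus) for Rsad2, chr10:128270264-128270297 (plus) for Stat2, chr3:142620592-142620625 (plus) for Gbp2, chr19:34583361-34583428 (plus) for Ifit3 and chr19:34640773-34640825 (plus) for Ifit1.
Cxcl10: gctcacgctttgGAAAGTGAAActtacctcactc
Oas1a: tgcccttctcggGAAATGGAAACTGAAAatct
Bst2: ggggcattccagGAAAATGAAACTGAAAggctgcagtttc
Rsad2: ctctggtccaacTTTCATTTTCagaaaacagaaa
Stat2: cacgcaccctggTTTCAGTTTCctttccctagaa
Gbp2: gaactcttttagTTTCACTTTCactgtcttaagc
Ifit3: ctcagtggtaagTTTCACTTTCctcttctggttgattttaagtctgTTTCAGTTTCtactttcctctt
Ifit1: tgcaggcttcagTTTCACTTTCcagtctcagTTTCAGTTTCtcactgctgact

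The ISRE core was present in the windows of 12 of the 25 genes (48%), against 3.99% of the 27025 genes in the table and 3.44% of its 32851 windows. The other holders were Ifih1 and Ddx58, in which the core lay after the start site, beginning at base 32 in Ifih1 and base 2 in Ddx58. Isg15 held 3 cores, and Ifit1, Ifit3, Oas1a and Bst2 held 2 each, with those of Isg15, Oas1a and Bst2 overlapping one another by 4 bases. The GAS core was found in 5 of the 25 genes (20%), namely Irf1, Ifit2, Oas1a, Bst2 and Ifi35, against 9.55% of all genes, and the GAS core of Bst2 overlapped its first ISRE core. The genes were listed for their known induction by interferon, so a match describes the letters in these windows and not a site that is bound. H2-K1 and H2-D1 held neither core in these letters.

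**Figure D1:**
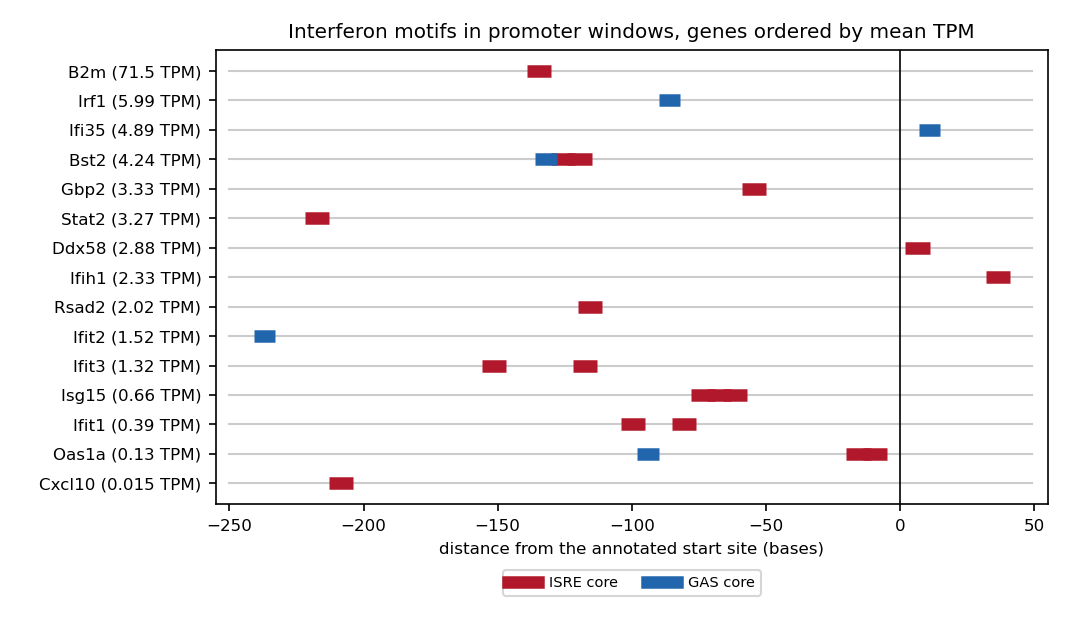
Position of the ISRE core (red) and the GAS core (blue) in the promoter windows of the 15 genes that hold a core, as distance in bases from the annotated start site, with genes ordered by their mean TPM. Cores lie at all levels, from Cxcl10 at 0.015 TPM to B2m at 71.5 TPM.

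Levels of genes with and without the core overlapped. Genes with the ISRE core ranged from 0.015 to 71.5 TPM with a median of 2.18 TPM, and 8 of 12 had a mean of at least 1 TPM. Those without it ranged from 0.145 to 40.0 TPM with a median of 3.79 TPM, and 11 of 13 had a mean of at least 1 TPM. Isg15, with the most cores, stood at 0.68 TPM in library 2 and 0.64 TPM in library 1.

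Most of the genes stood at a few TPM, and class I genes held most of the RNA. Of the 31 genes, 23 (74.2%) reached 1 TPM in both libraries, against 21% of all annotated genes and 48.9% of protein-coding genes. Only B2m, H2-K1, H2-D1 and Ifi27 had a mean of at least 10 TPM, 19 lay between 1 and 10 TPM, and 8 were under 1 TPM (Irf7, Isg15, Mx1, Ifit1, Usp18, Ifi44, Oas1a and Cxcl10). In the second quantification Ifi27l2a at 12.3 TPM and Tap2 at 13.1 TPM also passed 10 TPM. From protein-coding transcripts alone Ifi27 fell below it, to 8.88 TPM. The median of the mean levels was 2.64 TPM over all 31 genes, against 0.99 TPM over all protein-coding genes. Among detected genes alone the medians were 3.80 TPM for the 23 and 7.63 TPM for protein-coding genes. The summed level was 270.5 TPM in library 2 and 227.8 TPM in library 1 (249.1 ± 30.2 TPM, mean ± SD, n = 2), or 0.0827% and 0.0696% of all TPM in nuclear protein-coding genes. H2-K1, H2-D1 and B2m together held 60.5% of this sum in library 2 and 60.2% in library 1 (60.3 ± 0.177%). Counted as reads, without division by length, the share of these 3 genes was 51.9% in library 2 and 48.9% in library 1.

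**Figure D2:**
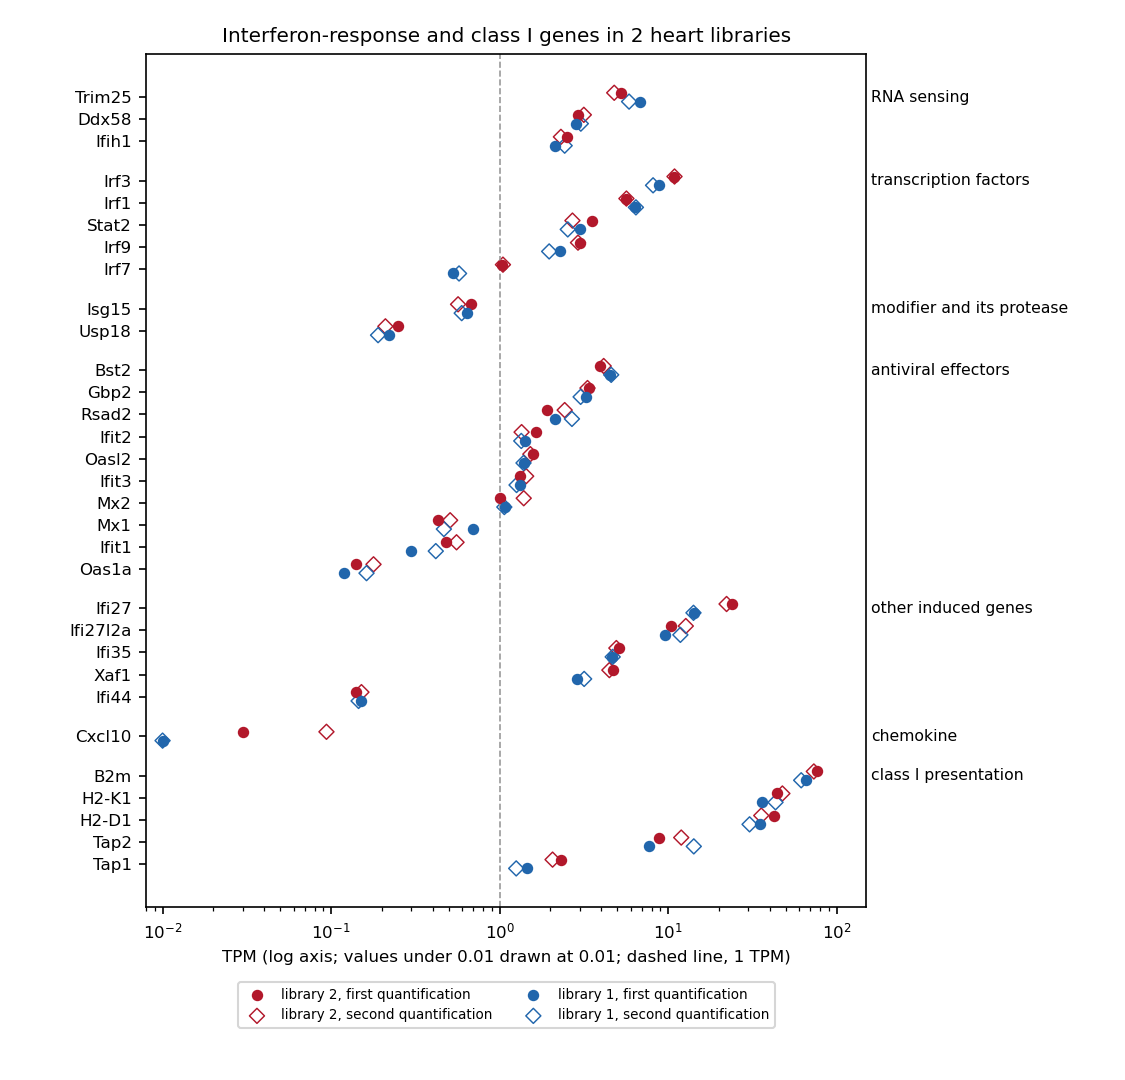
TPM of the 31 genes (log axis) by role, in library 2 (red) and library 1 (blue), as filled circles for the first and open diamonds for the second quantification; the dashed line marks 1 TPM. The 3 class I genes B2m, H2-K1 and H2-D1 stand highest, Cxcl10 lowest, and the libraries lie close together beside the range between genes.

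Library 2 held 37060119 expected counts and library 1 held 39819960, and the counts given for a gene are the reads behind its value. The labelled tissue matched its markers, since all 8 cardiomyocyte genes were detected, with a summed level of 28780 TPM in library 2 and 28950 TPM in library 1. All 8 endothelial markers, all 8 fibroblast markers and 8 of 10 macrophage markers were detected too. Among 11 lymphocyte markers only Ighm was detected, and no neutrophil marker was, with Ly6g and Cxcr2 at 0 in both libraries. In bulk tissue, fewer cells of a type and less RNA per cell cannot be told apart. Reads from CAST alleles were assigned with the C57BL/6J reference, and how far strain differences lowered a value was not tested.

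The interferon genes themselves were at or near 0. Of 21 type I, II and III interferon genes, 20 had no count in either library, among them Ifnb1, Ifng and Ifnl2, and the last, Ifnz, had 0.5 expected counts in library 2 and none in library 1. A count of 0 allows up to 3 counts per library. The receptors were present, with 5 of 6 chains detected. Ifngr2, a chain of the interferon gamma receptor, led with 51.2 TPM in library 2 and 46.0 TPM in library 1, and Il10rb, shared by receptors for type III interferons and interleukin 10, had 40.1 TPM in library 2 and 41.6 TPM in library 1. Ifngr1 stood at 14.5 ± 0.0919 TPM and the type I chain Ifnar2 at 11.3 ± 0.120 TPM, while Ifnlr1, specific to type III interferons, was at 0.85 TPM in library 2 and 0.93 TPM in library 1.

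Signal transducers were all detected. In the JAK-STAT list of 7 genes, Stat3 and Jak1 led with 26.6 ± 2.09 and 25.9 ± 0.177 TPM, and Jak2 stood at 5.78 ± 0.481 TPM. Of 12 inhibitors of signalling 9 were detected. These were led by the phosphatase Ptpn11 at 55.9 ± 2.23 TPM, Cish at 27.1 ± 0.842 TPM, Socs2 at 14.4 ± 0.0283 TPM and the repressor Irf2 at 8.86 ± 0.276 TPM, whereas Socs1, which blocks Janus kinases, had only 4 counts in library 2 and 10 counts in library 1.

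RNA sensing genes were present at a few TPM. The sensor of long double-stranded RNA, Ifih1 (MDA5), had 2.52 TPM in library 2 and 2.14 TPM in library 1, from 234 and 252 counts. Ddx58 (RIG-I), which recognises RNA with a triphosphate end, had 2.92 TPM in library 2 and 2.85 TPM in library 1, from 198 and 226 counts. Trim25, a ubiquitin ligase that acts on RIG-I signalling, was the highest of these, with 5.27 TPM in library 2 and 6.78 TPM in library 1, from 680 and 784 counts. Between libraries the ratio of counts per library total was 0.998 with an exact 95% interval of 0.831 to 1.20 for Ifih1 and 0.941 (0.774 to 1.14) for Ddx58, both holding 1. Such intervals come from the conditional binomial distribution (Clopper-Pearson) and cover counting error only.

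For Trim25 the gene value turned on a single transcript. Trim25-203, of 5590 bases, had 3.55 TPM in library 2 and 3.51 TPM in library 1. The shorter Trim25-202, of 1433 bases, had 1.72 TPM in library 2 and 3.26 TPM in library 1, from 71.3 and 144.2 counts. The lower gene TPM of library 2 lay in this transcript, and the counts of the whole gene had a ratio of 0.932 (0.840 to 1.03) that held 1.

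In the sensing pathway as listed, 12 of 19 genes found were detected. The mitochondrial adaptor Mavs led with 20.6 ± 0.453 TPM, followed by Irf3, Trim25 and the kinase Tbk1 at 4.91 ± 0.813 TPM. Cgas, the cytosolic DNA sensor, had 0.19 TPM in library 2 and 0.05 TPM in library 1, from 22 and 7 counts, and Sting1 (Tmem173 in the files), which receives its signal, had 1.64 TPM in library 2 and 1.99 TPM in library 1. Below 1 TPM in a library lay also Dhx58, Tlr7, Tlr9, Zbp1, Ikbke and Irf7.

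Among the transcription factors Irf3, Irf1, Stat2 and Irf9 exceeded Irf7 in both libraries. Irf3, the factor activated by the sensors, had 10.9 TPM in library 2 and 8.86 TPM in library 1, from 327 and 325 counts. Irf1, induced by interferon gamma, had 5.59 TPM in library 2 and 6.39 TPM in library 1, from 325 and 405 counts. Stat2 had 3.53 TPM in library 2 and 3.01 TPM in library 1, and Irf9, its partner, had 2.99 TPM in library 2 and 2.29 TPM in library 1. Irf7, which amplifies type I interferon production, had 1.03 TPM in library 2 and 0.53 TPM in library 1, from 55 and 33 counts, and so passed 1 TPM in library 2 and not in library 1. Its count ratio was 1.79 (1.14 to 2.85), but it was too low in the mean (0.780 ± 0.354 TPM) to enter the comparison of libraries described below.

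By gene sums the order in the IRF family was Irf3, Irf2, Irf1, Irf9 and Irf8 among the 5 detected of 9. Irf3 at 9.87 ± 1.43 TPM and Irf2 at 8.86 ± 0.276 TPM did not differ beyond their spread, whereas Irf1 at 5.99 ± 0.566 TPM lay below both in each library. Protein-coding transcripts held 51.6 ± 6.43% of the TPM of Irf3. From those transcripts alone Irf3 had 6.11 TPM in library 2 and 4.17 TPM in library 1. Irf1 had 5.22 and 6.16 TPM from them, so the order of Irf3 and Irf1 then differed between the libraries. Irf8, a factor of macrophages and dendritic cells, stood at 1.26 ± 0.0283 TPM, and Irf4, Irf5 and Irf7 were under 1 TPM in at least 1 library. Some exons lie on top of those of other genes, which can blur a value, above all on the same strand because the kit was directional. How far this happened was not tested. Irf9 shares 123 bases on its own strand with Rnf31, which had 12.9 TPM in library 2 and 9.25 TPM in library 1, and on the opposite strand Irf3 shares 88 bases with Bcl2l12, Irf7 shares 45 with Phrf1 and Irf1 shares 135 with Gm17334.

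The ubiquitin-like modifier and its protease were under 1 TPM in both libraries. Isg15, which is attached to proteins during the response, had 14 counts in each library. Usp18, which removes Isg15 and also blocks the type I receptor, had 13 counts in library 2 and 12 counts in library 1, or 0.25 and 0.22 TPM. Both lie below the middle of the effector genes, and 12.8% of the 31-base words of Isg15 also occur in other genes, most of them in AC151275.1, so its few reads could be shared.

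The antiviral effectors were low, and none exceeded 5 TPM. Bst2 (tetherin), which holds budding virus at the cell surface, led with 3.94 TPM in library 2 and 4.53 TPM in library 1, from 85 and 104 counts. The guanylate-binding protein Gbp2 followed with 3.40 TPM in library 2 and 3.26 TPM in library 1. Rsad2 (viperin), which makes a nucleotide that ends viral RNA chains, had 1.91 TPM in library 2 and 2.14 TPM in library 1. The remaining 7 effectors all lay under 1.7 TPM in both libraries. Rsad2 was close to Ifit2, and from protein-coding transcripts alone its mean was 1.34 TPM.

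The Ifit proteins bind foreign RNA and lie side by side on chromosome 19, with Ifit2, Ifit3 and Ifit1 within 99.3 kb (mm10). Ifit2 had 1.64 TPM in library 2 and 1.41 TPM in library 1, and Ifit3 had 1.32 TPM in both. Ifit1 had 0.48 TPM in library 2 and 0.30 TPM in library 1, from 38.2 and 25.4 counts, a ratio of 1.63 (0.960 to 2.82) that held 1. Of the 31-base words in Ifit3, 61.8% occur in its neighbour copy Ifit3b, which had 0.68 TPM in library 2 and 0.57 TPM in library 1, so the split of reads between them is uncertain. Ifit1 shared 9.16% of its words with Ifit1bl2, and Ifit2 shared none with any gene.

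The OAS and Mx genes lay in the same low range. Oasl2, of the oligoadenylate synthetase-like group, had 1.57 TPM in library 2 and 1.40 TPM in library 1. Oas1a, an enzyme that makes the activator of RNase L, had 0.14 TPM in library 2 and 0.12 TPM in library 1, from 7.89 and 7 counts, and shared 68.7% of its words with Oas1g, so even these reads are uncertain. Mx1 and Mx2 are dynamin-like GTPases on chromosome 16, separated by 72.4 kb, and many laboratory strains, C57BL/6 among them, carry a defective Mx1. Mx2 had 1.00 TPM in library 2 and 1.08 TPM in library 1, at the limit of detection as defined here. Mx1 had 0.43 TPM in library 2 and 0.70 TPM in library 1, while its counts per library total had a ratio of 0.964 (0.593 to 1.56). In the second quantification Mx1 stood at 0.509 TPM in library 2 and 0.467 TPM in library 1, so the direction between libraries turned with the quantification.

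Further induced genes were mostly present at a few TPM. In a list of 54 further interferon-stimulated genes 35 were detected, led by Ly6e at 45.5 ± 0.276 TPM, Ifitm2 at 32.4 ± 0.523 TPM, Ifitm3 at 29.1 ± 3.54 TPM and Slfn5 at 18.0 ± 0.0212 TPM. Among 20 guanylate-binding and immunity-related GTPases 11 were detected, and all of these lay between 1 and 4 TPM. They were led by Irgm2 at 3.65 ± 0.0707 TPM, Irgm1 at 3.62 ± 0.141 TPM, Igtp at 3.37 ± 0.163 TPM and Gbp3 at 3.34 ± 0.0424 TPM, and Gbp2 came next at 3.33 ± 0.0990 TPM. Igtp, Gbp3 and Gbp2 differed by less than the SD of Igtp.

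Ifi27, a small membrane protein induced by type I interferon, was the highest of the 31 genes outside class I by its gene sum. From protein-coding transcripts alone its mean was 8.88 TPM against 9.98 TPM for Ifi27l2a, and the order differed between the libraries. Ifi27 then had 11.9 TPM against 10.4 TPM in library 2, and 5.87 TPM against 9.55 TPM in library 1. As a gene sum Ifi27 had 23.98 TPM in library 2 and 14.3 TPM in library 1, from 428 and 295 counts, and lies at chr12:103434211-103440239 (mm10, plus strand). Its neighbour Ifi27l2a, 1.93 kb away, had 10.4 TPM in library 2 and 9.55 TPM in library 1, from 118 and 115 counts. The ratio of counts per library total was 1.56 (1.34 to 1.81) for Ifi27 and 1.10 (0.845 to 1.44) for Ifi27l2a, and the difference between these ratios was not tested. Ifi35, a partner of Nmi, had 5.14 TPM in library 2 and 4.64 TPM in library 1. Xaf1, a binding partner of the apoptosis inhibitor XIAP, had 4.69 TPM in library 2 and 2.90 TPM in library 1, from 201 and 175 counts, and Ifi44 had 0.14 TPM in library 2 and 0.15 TPM in library 1.

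No chemokine of the response reached 1 TPM. Cxcl10, which draws activated T cells, is the only chemokine among the 31 genes. It had 1 count in library 2 and 0 counts in library 1, where a count of 0 allows up to 0.0783 TPM. Its exons overlap those of Art3 on the opposite strand by 133 bases, and Art3 had 206.7 TPM in library 2 and 223.6 TPM in library 1. Cxcl9 had 37 counts in library 2 and 23 counts in library 1, Cxcl11 had 0 and 3, Ccl5 had 4 and 1, and Cxcr3, the receptor of the Cxcl group, had 3 and 0.

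Class I molecules consist of a heavy chain, such as H2-K1 or H2-D1, and the invariant light chain B2m. B2m had 76.7 TPM in library 2 and 66.2 TPM in library 1, from 1818 and 1669 counts, and exceeded 93.7% of detected protein-coding genes by its mean. H2-K1 had 44.1 TPM in library 2 and 35.9 TPM in library 1, from 1281 and 1110 counts. H2-D1 had 42.7 TPM in library 2 and 35.0 TPM in library 1, from 2295 and 2110 counts. In the first quantification the heavy chains did not differ from each other beyond their spread. Their means there were 40.0 ± 5.83 TPM for H2-K1 and 38.9 ± 5.44 TPM for H2-D1. In the second, H2-K1 exceeded H2-D1, with 47.7 TPM against 35.7 TPM in library 2 and 43.4 TPM against 30.45 TPM in library 1. B2m was higher than each heavy chain in both libraries. B2m over the sum of both heavy chains was 0.883 in library 2 and 0.934 in library 1. That sum includes H2-K1-215, an entry that keeps an intron, with 19.05 TPM in library 2 and 15.26 TPM in library 1. From protein-coding transcripts alone H2-K1 had 22.7 and 18.2 TPM and H2-D1 had 38.7 and 33.2 TPM in library 2 and library 1. B2m exceeded the sum of these in both libraries.

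In mm10 these genes lie at chr17:33996017-34000347 (minus strand) for H2-K1, chr17:35262730-35267499 (plus strand) for H2-D1 and chr2:122147686-122153083 (plus strand) for B2m. The transporter genes Tap1 and Tap2, 6.3 kb apart, lie between the heavy chains on chromosome 17. H2-K1 shared 22.8% of its 31-base words with other genes, including 9.5% with H2-Q10, and H2-D1 shared 26.7%, including 13.8% with H2-K1. Reads in these stretches were split by the estimator, whereas B2m shared none.

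Transporter subunits that carry peptides into the endoplasmic reticulum were present at different levels. Tap1 had 2.30 TPM in library 2 and 1.46 TPM in library 1, from 151 and 130 counts. Tap2 had 8.78 TPM in library 2 and 7.66 TPM in library 1, from 620 and 640 counts. Tap2 thus exceeded Tap1 in both libraries, but most of the Tap2 value belonged to a transcript that keeps an intron, Tap2-202 (2561 bases), with 6.63 TPM in library 2 and 6.83 TPM in library 1. The full-length Tap2-201 (3442 bases) had 0.97 TPM in library 2 and 0.74 TPM in library 1. The leading protein-coding Tap1-206 (2953 bases) had 1.19 and 1.04 TPM. Summed over protein-coding transcripts, Tap2 had 1.85 TPM in library 2 and 0.83 TPM in library 1, and Tap1 had 1.32 and 1.04 TPM. The order of these sums thus differed between the libraries. In the second quantification the short protein-coding Tap2-203 alone, with 2.64 and 3.45 TPM, exceeded the whole Tap1 gene, with 2.06 and 1.255 TPM. The exons of Tap1 overlap those of Psmb9 on the opposite strand by 212 bases.

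The class I list beyond these genes was broad. Of 21 heavy chains and class I-like genes 12 were detected, led after H2-K1 and H2-D1 by Fcgrt, the neonatal Fc receptor chain, at 24.5 ± 0.0636 TPM and H2-T23 at 8.60 ± 0.431 TPM. Of 16 genes of loading 15 were detected, led by the chaperones Canx at 112.3 ± 3.36 TPM and Calr at 101.8 ± 10.6 TPM and by the proteasome activator Psme1 at 91.9 ± 1.05 TPM, with B2m the fourth. The class I transactivator Nlrc5 had 1.23 TPM in library 2 and 0.53 TPM in library 1, from 92 and 68 counts. Immunoproteasome subunits were low beside their constitutive partners. The ratio of TPM was 0.0707 in library 2 and 0.0851 in library 1 for Psmb8 over Psmb5, 0.0468 and 0.0472 for Psmb9 over Psmb6, and 0.300 and 0.276 for Psmb10 over Psmb7. Of 7 class II genes, which belong to antigen-presenting cells, 5 were detected, led by Cd74 at 24.6 ± 2.55 TPM, H2-Aa at 9.92 ± 1.31 TPM, H2-Eb1 at 9.59 ± 0.877 TPM and H2-Ab1 at 5.74 ± 0.481 TPM.

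Gene values are sums over annotated transcripts, and for several of the 31 genes much of the sum was not protein coding. Of 20 genes with a mean of at least 1 TPM and several transcripts, 15 had the same leading transcript in both libraries and both quantifications. The leader differed for Irf3, Irf9, Oasl2, Rsad2 and Ifi27. It was no protein-coding transcript in the first quantification for Irf3, Oasl2, Ifi27, H2-K1 and Tap2. H2-K1-215, an entry of 457 bases that keeps an intron, held 42.9 ± 0.458% of the TPM of H2-K1 but only 212.1 of its 1281 counts in library 2 and 180.6 of its 1110 counts in library 1. The full-length H2-K1-205 (1570 bases) had 13.2 TPM in library 2 and 12.3 TPM in library 1. Protein-coding transcripts held 51.0 ± 0.582% of the TPM of H2-K1 and 92.7 ± 3.11% of that of H2-D1. The heavy chains were thus nearly equal as gene sums of the first quantification, and not as its protein-coding transcripts. From those transcripts alone H2-K1 had 22.7 TPM in library 2 and 18.2 TPM in library 1, and H2-D1 had 38.7 TPM in library 2 and 33.2 TPM in library 1.

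**Figure D3:**
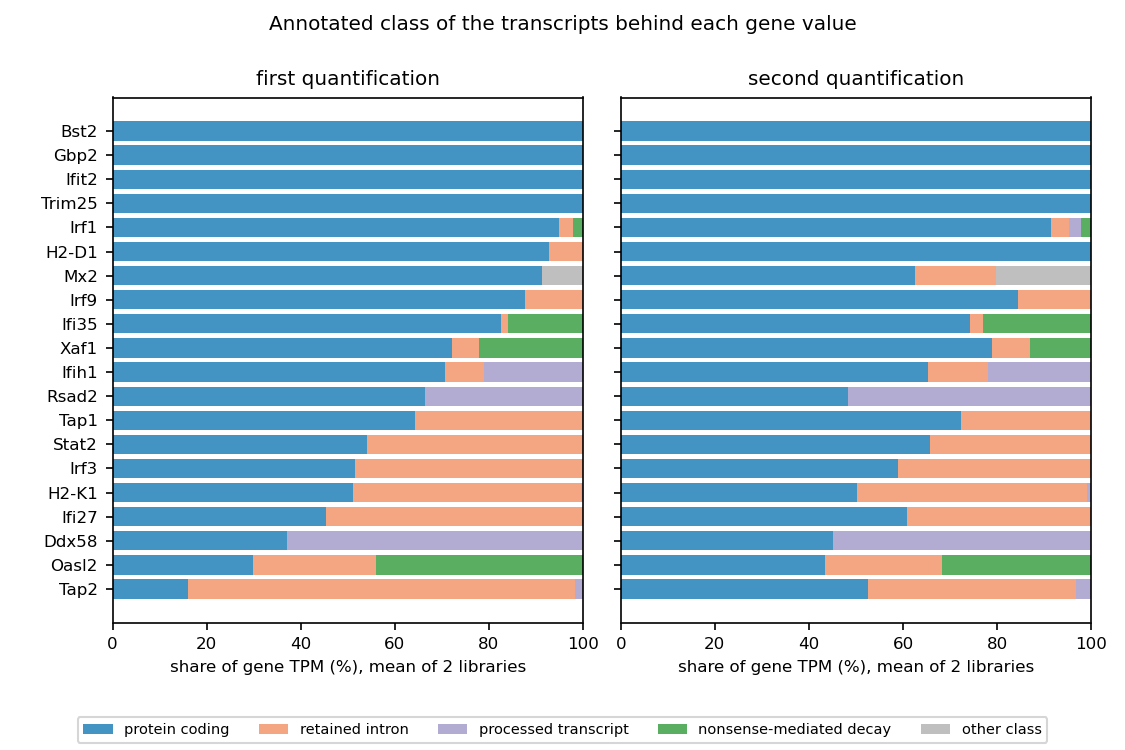
Share of each gene's TPM (%, mean of 2 libraries) held by transcripts of each annotated class, in the first (left) and second (right) quantification, for the 20 genes with several transcripts. Tap2 has the lowest protein-coding share in the first quantification, 16.0%, and bars of Bst2, Gbp2, Ifit2 and Trim25 are protein coding at nearly full length.

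Tap2 was also the gene on which the quantifications parted. It had 8.22 ± 0.792 TPM in the first quantification and 13.1 ± 1.58 TPM in the second, a ratio of 0.628. It was the only one of 23 genes (4.35%) with a mean of at least 1 TPM whose quantifications differed by more than 1.5-fold, against 6.71% of all such genes. The short transcripts Tap2-203 (376 bases) and Tap2-204 (378 bases) were higher in the second quantification in both libraries. Tap2-203 had 0.88 TPM in library 2 and 0.08 TPM in library 1 in the first quantification, and 2.64 TPM in library 2 and 3.45 TPM in library 1 in the second. The effective length by which its reads are divided was 276 bases in the first quantification in both libraries, and 152.3 and 158.3 bases in library 2 and library 1 in the second.

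In the remaining genes of mixed make-up the value also rests on the choice of transcripts. Rsad2-203, an entry of 430 bases without a coding sequence, held 33.7% of the TPM of Rsad2 in the first and 51.8% in the second quantification, from 6.85 counts in library 2 and 7.60 counts in library 1 in the first. Ifi27-209, which keeps an intron and has 527 bases, had 9.54 TPM in library 2 and 5.08 TPM in library 1. Ifi27-201, a protein-coding transcript of 889 bases that leads in the second quantification, had 3.93 TPM in library 2 and 1.39 TPM in library 1, so both were higher in library 2. For Irf9 the first quantification gave Irf9-205 (2343 bases) 1.37 TPM in library 2 and 0 TPM in library 1, and Irf9-202 (2459 bases) 0.45 TPM in library 2 and 1.57 TPM in library 1. In the second, Irf9-205 stood at 1.27 TPM in library 2 and 0.688 TPM in library 1. Protein-coding transcripts held 37.1 ± 1.62% of the TPM of Ddx58, 54.1 ± 5.22% of that of Stat2 and 29.8 ± 11.5% of that of Oasl2.

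The libraries agreed within 2-fold for all 23 genes compared, while H2-K1, H2-D1, B2m and Ifi27 were higher in library 2 by more than counting error. The comparison asked for at least 10 counts in a library and a mean of at least 1 TPM, and took the ratio of TPM + 1, which understates the ratio of low genes. Of the 23 genes, 0 were past 2-fold, against 0.603% of 11940 genes compared in all, or 0.377% in the direction of library 2. At 1.5-fold 1 gene, Ifi27, was higher in library 2 (4.35%, against 1.13% of all) and 0 were lower. The log2 ratio of library 2 over library 1 was above 0 for 17 genes and below 0 for 5, and its median was 0.13, against -0.01 over all 12032 annotated genes with a mean of at least 1 TPM. The 5 class I genes had a median of 0.28 and the other 18 genes one of 0.11. In the second quantification the median over the 23 genes was 0.10, against 0.01 over all genes. In both quantifications 15 genes were higher and 4 lower in library 2. The shares of all genes above and below 0 were not computed, so these counts of direction are a description only.

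**Figure D4:**
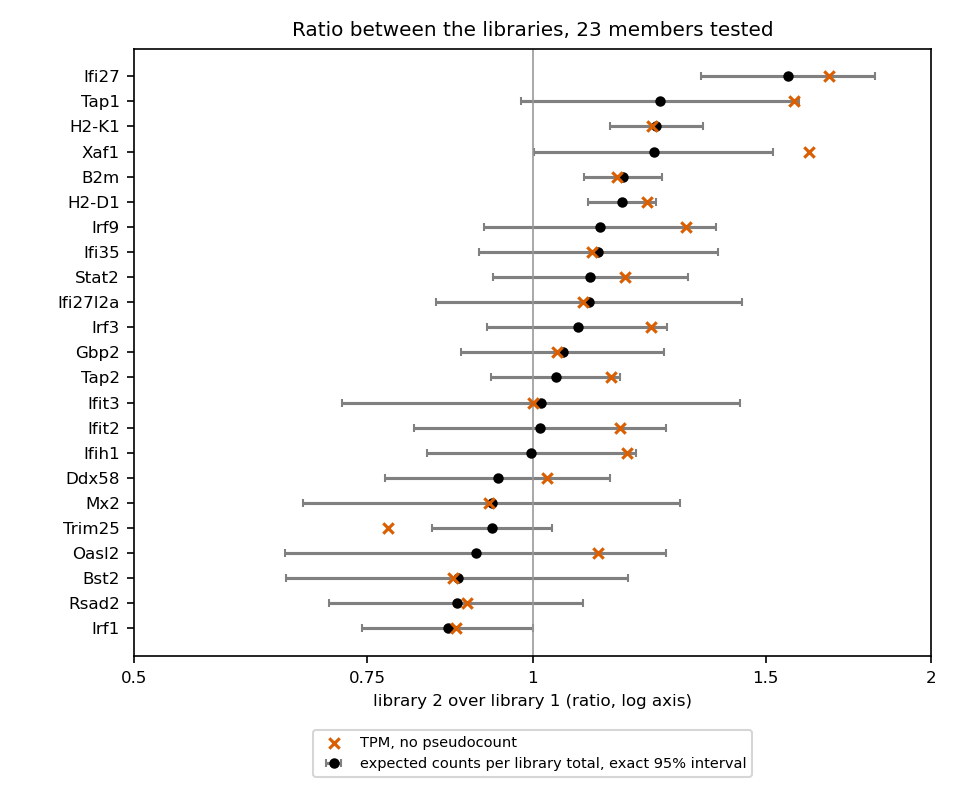
Ratio of library 2 over library 1 (log axis) for the 23 genes compared, in counts per library total with the exact 95% interval for counting error (black) and as TPM without pseudocount (orange crosses). Ifi27 lies farthest to the right, and the intervals of Ifi27, H2-K1, Xaf1, B2m and H2-D1 lie above 1.

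Counting error alone did not cover the difference for 5 of the 23 genes (21.7%), whose intervals lay above 1, against 12.8% of all genes compared. No interval lay below 1, against 10.4% of all, and 18 held 1. Beside Ifi27, the count ratio was 1.24 (1.14 to 1.35) for H2-K1, 1.17 (1.09 to 1.25) for B2m and 1.17 (1.10 to 1.24) for H2-D1. For Xaf1 it was 1.23 (1.002 to 1.52), and this call was lost when counts were scaled by edgeR TMM or DESeq2 size factors, which left 4 genes. Tap1 and Xaf1 stood further apart in TPM than in counts, with TPM ratios of 1.58 for Tap1 and 1.62 for Xaf1 against count ratios of 1.25 (0.980 to 1.59) and 1.23. The authors' estimator also gave intervals of TPM, whose level is not stated. These did not overlap between libraries for Ifi27, H2-K1, H2-D1 and B2m, nor for Trim25, which was lower in library 2. The share of all genes without such overlap was not computed, so this list is a description only. Neither kind of interval covers the spread between hearts.

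Other transcripts moved between the same libraries. All 6 adipocyte markers were higher in library 2, with a summed level of 39.4 TPM in library 2 and 10.6 TPM in library 1 and 4 of them past 2-fold. Of 8 atrial markers 7 were higher in library 2, with a sum of 1586 TPM in library 2 and 1192 TPM in library 1. The 10 macrophage markers summed to 89.8 TPM in library 2 and 81.9 TPM in library 1. Of this sum Lyz2 held 36.5 TPM in library 2 and 30.7 TPM in library 1. Csf1r, Cd68, Mrc1 and Adgre1 were also higher in library 2, whereas C1qa, C1qb, Fcgr1 and Cx3cr1 were lower and C1qc was equal. Lymphocyte markers summed to 6.1 TPM in library 2 and 4.03 TPM in library 1. Of the lymphocyte sum Ighm held 5.04 TPM in library 2 and 2.65 TPM in library 1, with Cd3e and Cd8a at 0 in library 2. Endothelial markers summed to 499.2 TPM in library 2 and 497.8 TPM in library 1, but only Fabp4 was higher in library 2, with 272.1 TPM against 252.6 TPM in library 1, and 5 of the 8 had a count interval below 1. Fibroblast markers summed to 409.8 TPM in library 2 and 437.5 TPM in library 1. The part of these cell types in the higher values of H2-K1, H2-D1, B2m and Ifi27 in library 2 was not tested.

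Within the class I and class II lists the same direction was seen for some genes and not for others. Over all genes compared, 12.8% of count intervals lay above 1 and 10.4% below, and the counts per list are a description only. Of 13 class I heavy chain and class I-like genes compared, 5 had a count interval above 1 and 0 below, namely H2-K1, H2-D1, H2-Q7, H2-Q6 with 3.09 TPM in library 2 and 1.30 TPM in library 1 and H2-Q4 with 7.61 TPM in library 2 and 5.80 TPM in library 1, while H2-T23 and Fcgrt held 1. H2-Q genes share sequence with each other and with the heavy chains, so these values are uncertain. Of 15 loading genes compared, 3 lay above 1 (B2m, Psme2 and Psme3) and 2 below (Calr and Canx). Of 35 other interferon-stimulated genes 2 (Eif2ak2 and Ifitm3) lay above and 0 below, and their median log2 ratio was 0.02. Of 5 class II genes 3 lay above 1, namely H2-Aa, H2-Ab1 and Cd74, the last with 26.4 TPM in library 2 and 22.8 TPM in library 1.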

How the data were processed

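Heart RNA was sequenced after reduction of ribosomal RNA with a directional kit, with ERCC spike-ins, per the labels. Per the deposited readme, the authors used mm10 and the M21 annotation. Aligner and tool versions: not given in the sources used here. Per the file headers, the first quantification holds expected counts, in which the estimator splits shared reads, and TPM, and its transcript table holds the percent of a gene's abundance in each transcript. The deposited FPKM was an alternative. The second quantification, per the file headers, holds estimated counts and TPM per transcript, summed per gene here. Both scale TPM over all entries, so TPM of a gene moves with the others.

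A gene was detected at 1 TPM or more in both libraries. Ratios used TPM + 1, and count ratios an exact 95% interval over annotated-gene totals (36926511 in library 2, 39668202 in library 1); intervals and zero counts cover counting error only. Words of 31 bases were taken from the annotated transcripts to find shared sequence. Named genes were all 31, the 4 highest genes of each list, and leading transcripts that differed or were not protein coding; other named genes were chosen after their values were seen. A few list genes are not reported here. The 31 genes and the lists were chosen with earlier results of these data known. Sensing symbols Riplet and Rnf135 name 1 gene. Steps were tested on simulated data. Intervals were computed with scipy 1.17.1 and tables with pandas 2.3.3 in Python 3.11.15, and scaling factors on rounded counts with edgeR 4.0.16 and DESeq2 1.42.0 in R 4.3.3. Alternatives were the second quantification, FPKM, protein-coding transcripts, other thresholds, scalings and each library alone.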

Additional observations from a re-analysis of the deposited data

How the results depend on the processing

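The number of genes detected, 23, was 23 in the second quantification, 22 by FPKM, 20 from protein-coding transcripts, 25 at 0.5 TPM and 29 at 10 counts, and 23 to 24 with either library alone. The summed level of 249.1 TPM was 249.9 in the second quantification, 208.7 by FPKM, 195.2 from protein-coding transcripts, and 227.8 to 270.5 with either library alone. The class I share of 60.3% was 58.5% in the second quantification, 65.5% from protein-coding transcripts, 50.4% of expected counts, and 60.2% to 60.5% with either library alone. The median log2 ratio of library 2 over library 1, 0.132, was 0.099 in the second quantification, 0.195 with a pseudocount of 0.1, 0.069 with edgeR TMM factors, 0.058 with DESeq2 size factors, 0.114 without a filter and 0.150 by FPKM, above 0 in each. No gene was past 2-fold under any of these, and 1 was at 1.5-fold, a threshold chosen after seeing the data. Intervals above 1 numbered 5, or 4 under either count scaling, alternatives also added after seeing the data. Allowing 1 mismatch in the ISRE core gave 20 genes in place of 12, with 38.9% of all genes in the table. Levels of 14 of the 31 genes moved by more than the SD between libraries in the second quantification, and of 13 with protein-coding transcripts only. No paired analysis was possible because there was a single group. Leaving out a library leaves no ratio between libraries. The planned protein identities were not run, and shared 31-base words were used in their place. Genes with under 40 counts (Usp18, Isg15, Ifi44, Oas1a and Cxcl10 among them) are limited by depth.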
